A study of Homo sapiens with 6 samples.

Results

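FABP1 and 6 genes that carry fatty acids into liver cells and through them were followed in HepG2 cells given atractylon. The 7 genes were FABP1, FABP5, CD36, SLC27A2, SLC27A4, SLC27A5 and DBI, of 33791 genes to which the deposited transcripts could be matched. Each transcript was matched to its GENCODE 29 gene by identifier, and 55 transcripts of the 7 genes were kept and read one by one and as sums per gene. FABP1 was chosen by its p-value, among the smallest of this same comparison (rank 10 of 12302 genes), and the other genes were added for their function. The differences between the groups are therefore given as a description, with no test of these genes and as support for nothing.

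HepG2 is a line of human liver cancer cells, and atractylon is a plant sesquiterpenoid found in Atractylodes rhizomes. The series compared 3 libraries of HepG2 cells given 20 µM atractylon with 3 libraries of HepG2 cells grown without it, and asked about invasion and migration. All cells were grown in DMEM with fetal bovine serum, and neither a treatment time nor a vehicle is given in the sources used here. The labels do not say whether each replicate was a culture of its own, so the errors cover only the spread among these libraries and may be technical. Totals ranged from 5859575 to 8832092 expected counts per library, an expected count being an estimated number of reads in which reads shared between transcripts are divided. Libraries differed in how counts followed GC content. The Spearman correlation, across genes, of a gene's deviation in a library with its GC content ranged from -0.596 in atractylon replicate 1 to 0.595 in atractylon replicate 2, and from -0.421 to 0.176 among the controls. The defining hepatocyte genes were present, with ALB at a mean of 3590 FPKM and HNF4A at 215 FPKM, where FPKM is a count scaled by transcript length and by the reads of the library. Summed over 8 hepatocyte genes, the level was 14400 to 16400 FPKM in the atractylon libraries and 14900 to 16100 FPKM in the control libraries.

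Long-chain fatty acids cross the plasma membrane with the help of CD36 and of the SLC27A proteins, also called fatty acid transport proteins, several of which are themselves acyl-CoA synthetases. Inside the cell, fatty acid-binding proteins carry free fatty acids through the cytosol, and the acyl-CoA-binding protein encoded by DBI holds the activated form. FABP1 is the fatty acid-binding protein of hepatocytes and enterocytes and one of the most abundant proteins of the liver cytosol. In rodents its gene is a known target of PPARA, a nuclear receptor that binds fatty acids.

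The sequences upstream of the start sites of FABP1 and DBI, the genes with the highest levels of the set, are shown because their starts are built differently. Both are 250 bases from RefSeq (GRCh38.p14), 5′ to 3′ towards the start site, chr2:88128063-88128312 on the minus strand for FABP1 and chr2:119366727-119366976 on the plus strand for DBI. Positions count from the RefSeq start. It lies 54 bases for FABP1 and 56 bases for DBI from the annotated start of the main transcript measured here. On which side was not recorded, so positions relative to that transcript's start are not given. DBI had 4 such windows, and the nearest to that start is shown. Capitals mark matches to 5 motifs searched on both strands.
FABP1: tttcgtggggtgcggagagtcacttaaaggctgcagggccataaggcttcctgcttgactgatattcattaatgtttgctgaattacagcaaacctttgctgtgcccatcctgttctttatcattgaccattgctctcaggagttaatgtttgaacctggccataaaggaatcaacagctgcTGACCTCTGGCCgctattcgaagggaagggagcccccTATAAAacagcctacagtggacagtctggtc
DBI: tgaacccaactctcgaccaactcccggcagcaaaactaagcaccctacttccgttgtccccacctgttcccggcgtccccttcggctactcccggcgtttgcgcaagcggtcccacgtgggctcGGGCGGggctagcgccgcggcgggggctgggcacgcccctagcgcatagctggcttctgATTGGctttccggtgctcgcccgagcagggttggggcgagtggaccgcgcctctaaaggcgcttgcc
In FABP1, TATAAA, the TATA box, began 31 bases upstream of the start site. A form of the direct repeat that PPARA and HNF4A bind, GGNCA and AGGTCA separated by 1 base, lay on the opposite strand from 68 to 57 bases upstream and contained a match to the core AGGTCA searched alone. This form of the repeat was chosen with the FABP1 sequence in view. Of 35116 upstream windows of the same length, 10.7% held TATAAA, 12.1% AGGTCA and 0.145% the spaced repeat. DBI had none of these 3 motifs in its window and instead had GGGCGG, the GC box, 126 bases upstream and CCAAT on the opposite strand 67 bases upstream, which 42.6% and 32.0% of windows held. GC content was 48.0% in the FABP1 window and 67.6% in the DBI window, against a median of 58.0% over all windows. A match to these letters is a description and not a measured binding site.

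Levels in these cells spanned from FABP1 at the top to CD36 at the bottom. Over all 6 libraries the mean level per length was 173 FPKM for FABP1, 146 for DBI, 34.8 for SLC27A4, 19.5 for SLC27A5, 9.03 for SLC27A2, 8.24 for FABP5 and 3.50 for CD36. In the atractylon libraries FABP1 stood above DBI, at 202 ± 17.8 against 148 ± 16.1 FPKM (SD, n = 3 each). In the control libraries these neighbours lay within each other's spread, FABP1 at 145 ± 12.5 and DBI at 143 ± 11.1 FPKM. SLC27A2 and FABP5 also lay within each other's spread in both groups, and SLC27A4 stood above SLC27A5 in every library. Short transcripts weigh more in FPKM, because FPKM as deposited uses an effective length below the full one, by a median gap of 258.5 to 269.0 bases across libraries. With the full length in its place the order of the 7 means was the same, and FABP1 was then above DBI in all 3 atractylon libraries and below it in all 3 control libraries. The place of SLC27A5 above SLC27A2 rested on short transcripts. The full-length coding transcript SLC27A5-201 had means of 1.52 FPKM with atractylon and 1.56 without, against 7.45 and 7.55 for SLC27A2-201.

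**Figure D1:**
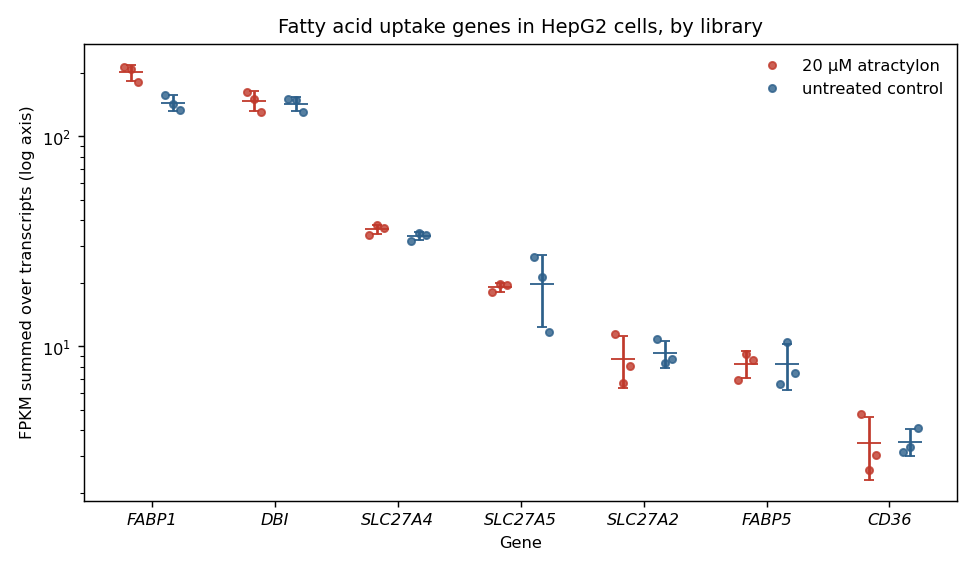
FPKM per gene (log axis), summed over transcripts, in each of the 3 atractylon libraries (red, left) and 3 control libraries (blue, right), with the mean and SD as bars. FABP1 has no overlap between the groups, and the points of the other 6 genes overlap.

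FABP1, the carrier of fatty acids in the hepatocyte cytosol, was at a higher level with atractylon in all 3 libraries. Its expected counts were 557, 477 and 426 in the atractylon libraries and 299, 328 and 391 in the control libraries. Scaled to library size as CPM, its level was 73.8, 72.4 and 64.6 in the atractylon libraries and 54.9, 49.5 and 48.4 in the control libraries. The lowest atractylon library lay above the highest control library, so the groups did not overlap. In such bulk RNA, more cells with a transcript and more transcript per cell cannot be told apart. The means were 70.3 ± 4.98 CPM with atractylon and 50.9 ± 3.51 CPM without (SD, n = 3 each), a log2 fold change of 0.47 ± 0.12 (SE, edgeR), or 1.38-fold with a 95% interval from 1.15 to 1.66. On FPKM the levels were 215, 209 and 182 with atractylon and 158, 142 and 134 without. Of all 12302 genes tested, groups did not overlap in 5.72%, with atractylon higher in 2.71% and lower in 3.02%. FABP1 was the 1 gene of the 7 without overlap. It was chosen by its p-value in this fit, so an interval clear of 1 was given by that choice. The interval takes no account of the choice.

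No gene of the whole table passed the threshold, an adjusted p of 0.05 in edgeR's quasi-likelihood fit (Benjamini-Hochberg over all genes tested). That is 0 of 12302 genes (0%) in either direction, and so 0 of the 7. Unadjusted p-values below 0.05 were found for 196 genes (1.59%) by edgeR, 0.788% of the table with atractylon higher and 0.805% with it lower, for 102 (0.829%) by DESeq2 and for 401 (3.26%) by limma on log2(FPKM + 0.5), and both of these tools also called 0 genes. The edgeR share rested on 1 library: leaving out atractylon replicate 1 brought it to 1319 genes (10.7%), with a FABP1 log2 fold change of 0.43. That library stood apart from its replicates: chi-square divided by its degrees of freedom, over genes, came to 19.15 and 13.77 against atractylon replicates 2 and 3, and to 3.41 between those libraries. Among the control libraries it was 4.77 to 10.61.

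DBI served as a neighbour in level with a similar main transcript, 627 bases at 47.6% GC against 546 bases at 45.2% GC for FABP1. The ratio of FABP1 to DBI on FPKM needs no scaling between libraries. It was 1.32, 1.39 and 1.39 in the atractylon libraries and 1.05, 0.95 and 1.02 in the control libraries. The groups did not overlap in this ratio, with means of 1.36 ± 0.039 and 1.01 ± 0.053 (SD, n = 3 each). DBI was picked for this ratio after its values were seen, and FABP1 was chosen for its difference between the groups. With DBI nearly level, the gap in the ratio follows from that choice and is no support for it.

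The FABP1 difference lay in its main protein-coding transcript. FABP1-201 was at 202, 200 and 174 FPKM in the atractylon libraries and 142, 132 and 125 FPKM in the control libraries, and it held 94.2% to 95.7% of the gene's FPKM with atractylon and 89.8% to 93.5% without. The groups did not overlap in its level or in its share of FPKM. On expected counts, where long transcripts weigh more, the shares of the groups overlapped. FABP1-201 then held 468 of 557 counts in atractylon replicate 1 and 277 of 328 in control replicate 2. The retained-intron transcript FABP1-203 had a lower mean with atractylon, at 7.01, 4.72 and 2.40 FPKM with atractylon and 11.72, 6.49 and 4.03 FPKM without, and its groups overlapped. The long coding transcript FABP1-202 was at 4.08, 2.72 and 5.36 FPKM with atractylon and 3.61, 2.53 and 4.11 FPKM without. FABP1-204, a processed transcript, was listed at 0 in atractylon replicate 3 and at 1.41 and 1.5 FPKM in the other 2 treated libraries, against 0.84, 0.65 and 0.53 FPKM in the control libraries. Both overlapped between the groups.

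**Figure D2:**
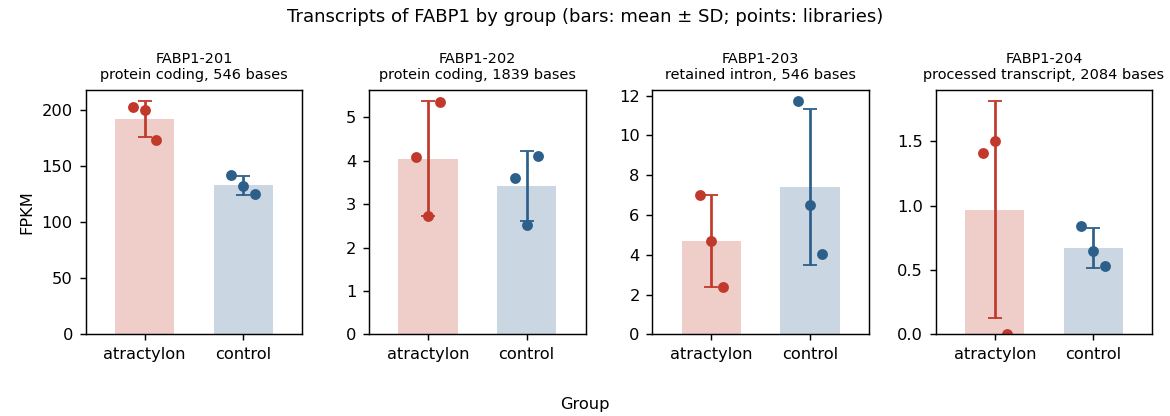
FPKM of the 4 FABP1 transcripts in the atractylon (red, left) and control (blue, right) libraries, with points for libraries and bars for the mean and SD, each panel on its own scale from 0. FABP1-201 separates the groups, with its lowest atractylon library at 174 FPKM and its highest control library at 142 FPKM, and the other 3 transcripts overlap.

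Among all 44393 transcripts at 0.5 FPKM or more in at least 3 libraries, 4.30% did not overlap with atractylon higher and 4.37% with atractylon lower. Of the 55 transcripts of the 7 genes, 15 were listed at 0 in every library and 21 passed that minimum. In 3 of these 21 the groups did not overlap, each with atractylon higher, and they were FABP1-201, SLC27A4-201 and SLC27A5-205. FABP1-201 holds most of the FPKM of the gene chosen for this difference, so its place among them was given by that choice. Transcripts of 1 gene share reads, so they are not independent.

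The other cytosolic carriers differed between the groups by less than their spread. FABP5, the fatty acid-binding protein first known from skin, had 33, 40 and 38 expected counts with atractylon and 23, 46 and 39 without. Its level was 5.40 ± 0.906 CPM with atractylon and 5.33 ± 1.42 CPM without, and the 95% interval of its fold ran from 0.649 to 1.57. FABP5 has near-identical processed copies, and of the 15 genes named as copies of the members in the table, 1 had any count, so few reads were placed on them. DBI was at 64.5, 61.5 and 53.5 CPM with atractylon and 59.5, 60.8 and 53.0 CPM without. The groups overlapped, and the interval of its fold was narrower, from 0.855 to 1.26. DBI-202 held 95.2% to 97.8% of its FPKM over the 6 libraries.

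Of the SLC27A proteins, SLC27A4, a fatty acid transport protein and acyl-CoA synthetase found in many tissues, had the highest level. It was at 99.8, 116 and 112 CPM with atractylon and 93.1, 102 and 101 CPM without, with atractylon replicate 1 below 2 of the controls. Its log2 fold change was 0.15 ± 0.11 (SE). Its main transcript, SLC27A4-201, did not overlap, at 33.40, 36.01 and 36.04 FPKM with atractylon and 30.83, 32.49 and 32.86 FPKM without. The sums per gene overlapped on FPKM as on CPM.

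SLC27A5, a liver transporter that also activates bile acids, gave different pictures on counts and per length. It had 13.5, 15.5 and 14.1 CPM with atractylon and 13.6, 13.3 and 12.1 CPM without, which is 14.4 ± 1.01 against 13 ± 0.772 CPM (SD, n = 3 each). On FPKM the atractylon libraries lay between 18.1 and 19.7 and the control libraries between 11.8 and 26.5. Short transcripts set that spread. SLC27A5-206, of 474 bases, was at 5.98, 0.06 and 8.25 FPKM with atractylon and 13.47, 14.43 and 2.18 FPKM without, on no more than 23 expected counts in any library. The full-length coding transcript SLC27A5-201, of 2361 bases, was at 1.41, 1.45 and 1.70 FPKM with atractylon and 0.75, 2.18 and 1.76 FPKM without. SLC27A5-205, annotated for nonsense-mediated decay, was at 1.56, 1.70 and 1.85 FPKM with atractylon and 0.63, 0.76 and 1.21 FPKM without, and did not overlap. ZNF446 overlaps SLC27A5 on the other strand, and the use of strand in counting is not given in the sources used here.

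**Figure D3:**
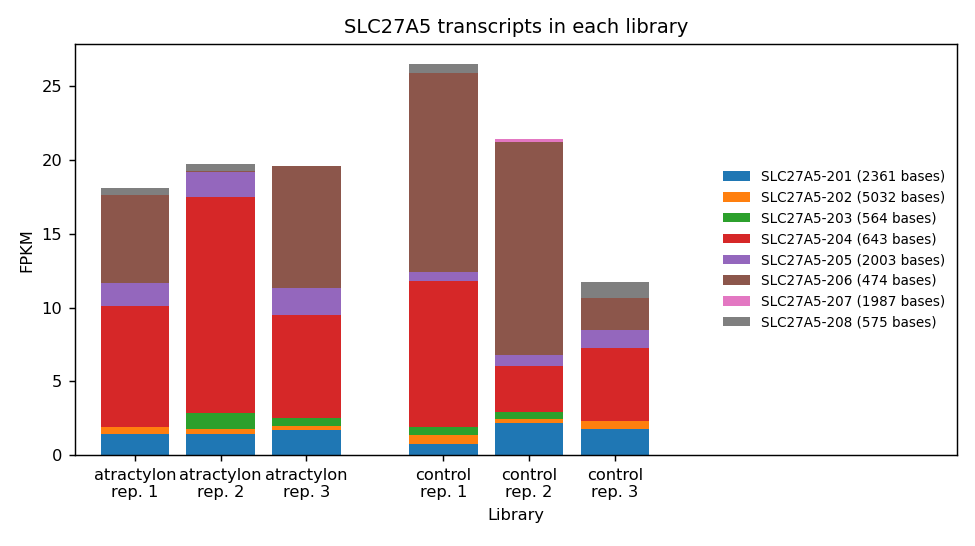
FPKM of the 8 SLC27A5 transcripts stacked in each library, atractylon on the left and control on the right, with transcript lengths in the legend. The transcripts of 643 and 474 bases make up most of each bar, and their split differs between libraries of 1 group.

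SLC27A2, a liver transporter that activates very long-chain fatty acids, was the 1 gene of the 7 with a negative log2 fold change on counts. It was at 25.4, 16.1 and 18.6 CPM with atractylon and 23.1, 19.5 and 20.0 CPM without, with a log2 fold change of -0.05 ± 0.20 (SE). Atractylon replicate 1 was the highest of all 6 libraries and atractylon replicate 2 the lowest. The second coding transcript, SLC27A2-203, took from 0% to 40.0% of the gene's FPKM, both extremes among the controls.

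CD36, the membrane receptor for long-chain fatty acids, had few reads. Its expected counts were 51, 17 and 23 with atractylon and 21, 31 and 30 without, spread over 12 of its 23 transcripts. Its level was 6.76, 2.58 and 3.49 CPM with atractylon and 3.86, 4.68 and 3.71 CPM without, and the interval of its fold ran from 0.599 to 1.87. The log2 fold change was 0.08 with all libraries, -0.42 without atractylon replicate 1 and 0.32 without atractylon replicate 2. CD36 has a GC content of 38.3%, the lowest of the 7 genes, and atractylon replicate 1 had the most negative GC correlation. The part of GC content in that value was not tested beyond the removal of the GC trend, which gave 0.02. CD36 also marks macrophages, endothelium and adipocytes. Of 5 adipocyte genes, FABP4, ADIPOQ and LEP were listed at 0 in all libraries, and their sum with PLIN1 and CIDEC was 7.59 to 10.5 FPKM with atractylon and 7.38 to 11.7 FPKM without. The macrophage receptor CSF1R and the endothelial receptor KDR were also listed at 0, and the leukocyte gene PTPRC reached 0.03 FPKM at most. Other immune genes were detected, CD68 at a mean of 18 FPKM and the monocyte receptor CD14 at 8 FPKM. CD14 was at 9.19, 8.52 and 8.91 FPKM with atractylon and 8.36, 6.24 and 6.77 FPKM without, and its groups did not overlap. The 6 immune genes summed to 551 to 670 FPKM with atractylon and 543 to 692 FPKM without, nearly all of it LYZ, and the 4 endothelial genes to 1.6 to 2.49 FPKM with atractylon and 2.21 to 3.69 FPKM without.

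**Figure D4:**
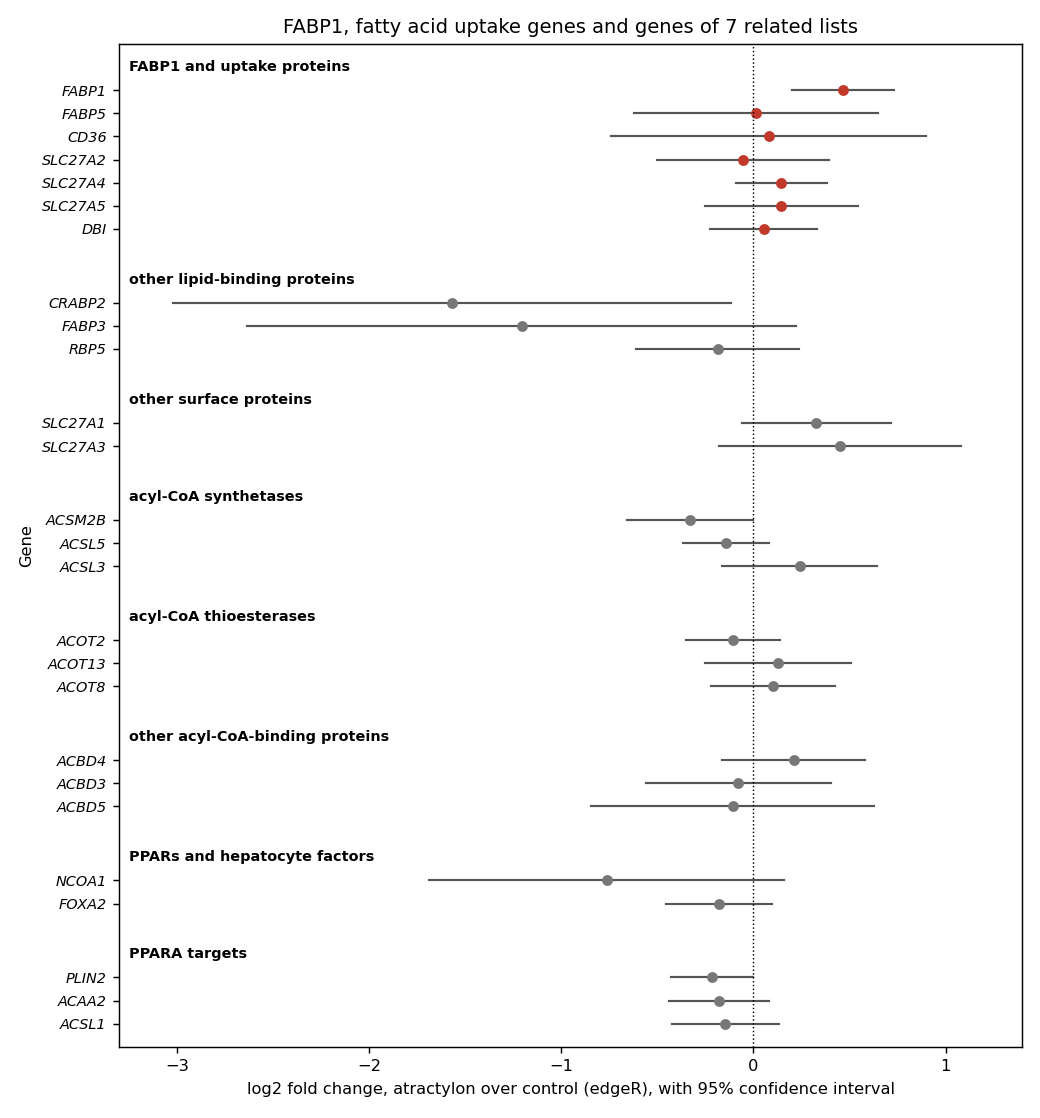
Log2 fold change of atractylon over control with its 95% confidence interval for the 7 genes (red) and for 2 or 3 genes of each of 7 related lists (grey), from those with the smallest unadjusted p in their list. The FABP1 interval runs from 0.20 to 0.73. Those of CRABP2 (-3.02 to -0.116), ACSM2B (-0.66 to -0.003) and PLIN2 (-0.431 to -0.003) lie below 0. No gene shown passed the threshold over all genes.

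Around these genes, 7 lists of fatty acid handling and its control held 102 genes, of which 77 had enough reads to be tested. None of the 77 passed the threshold, as in the table as a whole. Fold changes were positive in 41 and negative in 36, with a median log2 fold change of 0.02 against 0.01 over all genes. Groups did not overlap in 1 gene with atractylon higher and 5 with atractylon lower, against 2.71% and 3.02% of all genes.

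Among the other lipid-binding proteins 6 of 14 could be tested, and 2 of the 6 had positive fold changes. FABP4, FABP7, FABP9, FABP12, PMP2 and CRABP1 were listed at 0 in every library. The retinoic acid carrier CRABP2 was at 0.133, 0.304 and 0.606 CPM with atractylon and 1.29, 0.754 and 1.11 CPM without, on 1 to 9 counts per library. The groups did not overlap. FABP3, the heart-type carrier, was at 0.379 ± 0.131 CPM with atractylon and 0.935 ± 0.384 CPM without, and the retinol carrier RBP5 at 12.9 ± 0.869 and 14.7 ± 2.08 CPM.

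Of the other surface proteins and lipases 9 of 15 were tested and 7 had positive fold changes. SLC27A1, a relative of SLC27A4, was at 25 ± 4.2 CPM with atractylon and 19.9 ± 0.410 CPM without, and SLC27A3 at 8.32 ± 1.49 and 5.99 ± 2.0 CPM.

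Acyl-CoA synthetases, which trap fatty acids in the cell, had 8 positive and 7 negative fold changes among 15. ACSM2B, of medium chains, was at 44.4 ± 5.42 CPM with atractylon and 56.0 ± 7.51 CPM without, and ACSL3 at 108 ± 32.3 and 91.5 ± 7.42 CPM. ACSL5, of long chains, did not overlap on CPM, at 100 ± 2.46 and 111 ± 6.49 CPM. On FPKM it overlapped, at 33.08, 31.13 and 31.48 with atractylon and 31.14, 33.98 and 37.80 without. Thioesterases, which undo that step, had 5 positive and 2 negative, with ACOT2 at 101 ± 7.60 CPM with atractylon and 109 ± 7.86 CPM without. The other acyl-CoA-binding proteins, SCP2 among them, had 2 positive and 3 negative, with ACBD4 at 28.4 ± 4.57 and 24.5 ± 1.78 CPM.

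PPARs, their partners and hepatocyte transcription factors were split evenly, with 9 positive and 9 negative fold changes among 18. FOXA2, a hepatocyte factor, was at 55.6 ± 6.05 CPM with atractylon and 63.0 ± 1.92 CPM without, and the coactivator NCOA1 at 4.21 ± 2.44 and 7.15 ± 2.76 CPM. The FOXA2 groups did not overlap. The PPARA list, of genes that PPARA is known to activate, had 8 positive and 10 negative fold changes among 18, with a median of -0.02. PLIN2, which coats lipid droplets, was at 210, 218 and 220 CPM with atractylon and 270, 249 and 235 CPM without. Its groups did not overlap, in the opposite direction to FABP1. ACAA2, a thiolase of mitochondrial oxidation, was at 97.5 ± 5.68 CPM with atractylon and 111 ± 13.3 CPM without, and ACSL1 at 82.8 ± 12.2 and 91.7 ± 3.68 CPM.

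The genes whose profile over the 6 libraries lay nearest to FABP1 were sought among 8412 genes at a mean of 10 CPM or more. The measure was the root mean square difference of log2 CPM, each gene set to its own mean. The nearest were SLC37A2 at a distance of 0.104, CD14 at 0.107, AL132780.3 at 0.110, and IFNGR1 and RAP1A at 0.115 each. FABP1 itself departed from its own mean by 0.245 on this scale. SLC37A2 was at 25.9 ± 1.36 CPM with atractylon and 19.9 ± 1.28 CPM without, and CD14 at 13.9 ± 0.265 and 10.9 ± 1.64 CPM. CD14 is also one of the 6 macrophage and immune markers. Of the others, CD68 and LYZ had groups that overlapped, and PTPRC, CD163 and CSF1R were at 0.36 FPKM or less in every library. Whether the CD14 reads came from another cell type, and any part of that in the FABP1 value, was not tested. All 5 nearest genes had groups that did not overlap on CPM, as a profile near that of FABP1 brings with it. On FPKM the groups of IFNGR1 overlapped.

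The FABP1 value changed little with the processing. Over 17 alternatives its log2 fold change ran from 0.43 to 0.52 and was positive in each. With the GC trend of each library removed it was 0.52. SLC27A4 and SLC27A5 were also positive in each, and the other 4 genes had both signs. All alternatives drew on the same 6 libraries, and FABP1 was chosen for its difference in them. Its steady sign is therefore a description and no support for that difference.

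**Figure D5:**
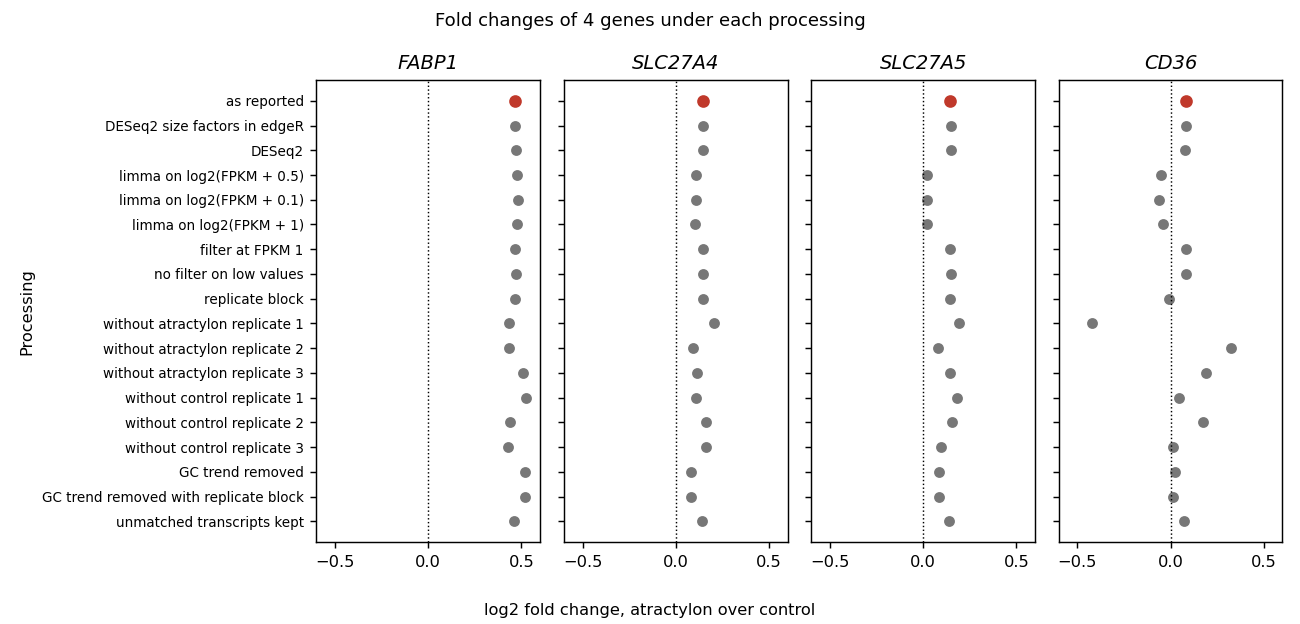
Log2 fold change of FABP1, SLC27A4, SLC27A5 and CD36 as reported (red) and under 17 other ways of processing (grey). FABP1 stays between 0.43 and 0.52, and CD36 runs from -0.42 to 0.32 as single replicates are left out.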

How the data were processed

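RNA of 6 HepG2 libraries was sequenced after a SMART-Seq v4 low-input kit, per the labels' protocols, which amplifies cDNA and can favour transcripts by GC content and length. The authors deposited, per the file headers, an expected count and an FPKM value for each of 180253 transcripts and library. The submitters' processing notes name DESeq2 1.6.3, HISAT2 2.0.1, cutadapt 1.9.1, bcl2fastq 2.17.1.14 and hg19. Which program counted reads, on which annotation and with what use of strand is not given in these sources.

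Of the transcripts, 153245 (85.0%) matched GENCODE 29, which is built on GRCh38, by identifier. The rest held 8.70% to 9.07% of counts and were left out. Expected counts were summed per gene and rounded. Genes at 0.5 FPKM or more in at least 3 libraries, 12302 in all, were tested with edgeR 4.0.16 (trimmed-mean scaling, glmQLFit, glmQLFTest, group as the only term, 2-sided, Benjamini-Hochberg adjustment), which was tested on simulated data. DESeq2 1.42.0 and limma 3.58.1 were alternatives. SEs came from the quasi-likelihood statistic, and profiles used a prior count of 2. Replicates of a group differed by more than sampling noise.

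The members, lists and alternatives were chosen with earlier results of these data known. Named genes were the 7 members, the 3 genes of each list with the smallest unadjusted p, and the 5 nearest to FABP1; some genes that the rule took are not reported here. Others named, among them list genes at 0, cell type markers and the ratio of FABP1 to DBI, were chosen after their values were seen.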

Additional observations from a re-analysis of the deposited data

How the results depend on the processing

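In 16 of 17 alternatives 0 genes of the whole table passed the threshold; without atractylon replicate 1 there was 1 (ZNF516, which is none of the 7), so leaving out replicates gave 0 to 1. In that same fit the genes at an unadjusted p under 0.05 numbered 1319 (10.7%), the most of any alternative, against 196 (1.59%). FABP1 had a log2 fold change of 0.43 to 0.52 over the replicates left out and 0.52 with the GC trend removed, against 0.47. With a replicate block it was 0.46, and 297 genes were under that limit. Same-numbered libraries had deviations correlated by 0.132, 0.176 and 0.011, and not every sample correlated best with its own number, so the numbers were not taken as pairs. No alternative moved FABP1 by more than its spread between replicates. On log2 FPKM, SLC27A5 was 0.02, against 0.15 on counts. Without atractylon replicate 1, CD36 was -0.42. With full transcript length, chosen after seeing the data, the ratio of FABP1 to DBI was 1.23 with atractylon and 0.917 in controls, against 1.36 and 1.01 on the deposited FPKM. Depth limits CD36 and FABP5, which had 17 to 51 and 23 to 46 expected counts per library.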
